A study of Mus musculus with 82 samples.

Results

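The keratin-associated protein genes (Krtap) were followed in dorsal skin of mice after whole-body X-ray exposure. A gene was a member if the accession of its array probe led, through a RefSeq gene table, to a mouse symbol that begins with Krtap, and where a gene had more than 1 probe, the one with the brightest mean log2 signal over all arrays stood for it. This gave 41 genes with 45 probes, of 18690 genes with a symbol on the array, while 56 Krtap symbols stand in the RefSeq table. Of the 41 genes, 40 were tested, and Krtap20-2 was above background on no array. By the family number in the symbol, 14 genes (13 tested) belong to the high glycine-tyrosine class, 11 to the high sulfur class and 12 to the ultrahigh sulfur class, and 4 were not classed. Most lie in gene clusters, 21 on chromosome 16, 15 on chromosome 11, 4 on chromosome 7 and 1 on chromosome 10.

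Keratin-associated proteins form the matrix in which the keratin filaments of the hair shaft are embedded and cross-linked. Their genes are transcribed late in the differentiation of hair shaft cells, in the lower part of a growing (anagen) follicle, and are silent in a resting (telogen) follicle. Hair keratins (Krt31 to Krt36 and the like) build the shaft itself, while Krt25, Krt27, Krt71 and trichohyalin (Tchh) mark the inner root sheath that surrounds it.

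The mice were male C57BL/6 animals (C57BL/6j in the sample labels), bought at 8 weeks of age. Irradiated groups were given whole-body X-rays under anesthesia at a dose of 20 Gy or at the sublethal doses of 6, 3 and 1 Gy, and the sham group (0 Gy) went through the same steps without radiation. At each time point, hour 2 (h2), day 4 (d4), d7, d21 and d28, the back was shaved with clippers and a biopsy of 1 cm2 was taken, so that the same mouse gave repeated biopsies of skin that had been clipped and wounded before, and mice of the 20 Gy group were euthanized by d7. In all there were 82 arrays from 24 mice in 23 groups of dose and time point, with 2 to 5 arrays in each. The sham group had 4 arrays at each of h2, d4 and d7 and 2 at each of d21 and d28.

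Cy5 carried the RNA of the biopsy and Cy3 a universal mouse reference RNA, so a level is given here as the log2 ratio of skin over reference, and 0 means as much signal as in the reference. Arrays came from 2 scanners, with 25 on scanner 1 and 57 on scanner 2, and all d21 and d28 arrays were read on scanner 2 while all 20 Gy arrays were read on scanner 1. Arrays had median Cy5 intensities of 22 to 118, and between 33.12% and 71.25% of the probes were well above background. Markers of epidermis were above the reference on every array (list median 1.357 to 7.013), and so were those of skeletal muscle (0.478 to 6.957) and adipocytes (0.211 to 7.012). In such bulk samples, fewer hair-forming cells and less RNA per cell cannot be told apart.

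For 38 of the 41 genes, RefSeq (GRCm38.p6) gave the sequence from 250 bases before to 50 bases after the gene start. The letters TATAAA, searched on both strands, were in 30 of these windows (78.9%), against 14.2% of the windows of all 27025 genes. On the gene's own strand, beginning 40 to 20 bases before the start, they stood in 22 Krtap windows (57.9%), against 2.22% of all windows. The letters CTTTGAA, a LEF/TCF motif, were in 8 windows (21.1%), against 5.27%, and TTTACGA, a posterior HOX motif, was in 0, against 0.625%. Motifs were searched without regard to overlap with each other. The 150 bases before the start of 6 genes that recur in the results are shown 5′ to 3′ on the gene's strand, with every TATAAA, and its reverse complement TTTATA, in capitals. They are of Krtap6-1 at chr16:89031549-89031698 on the plus strand, and on the minus strand of Krtap16-3 at chr16:88962874-88963023, Krtap22-2 at chr16:89010760-89010909, Krtap5-1 at chr7:142297135-142297284, Krtap4-6 at chr11:99665961-99666110 and Krtap3-2 at chr11:99556854-99557003.
Krtap6-1: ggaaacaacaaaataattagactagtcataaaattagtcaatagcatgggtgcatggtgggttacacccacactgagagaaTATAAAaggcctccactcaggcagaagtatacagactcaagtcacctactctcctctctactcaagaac
Krtap16-3: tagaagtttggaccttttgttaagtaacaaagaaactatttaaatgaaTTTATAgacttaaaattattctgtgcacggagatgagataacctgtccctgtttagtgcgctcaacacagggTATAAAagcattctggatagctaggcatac
Krtap22-2: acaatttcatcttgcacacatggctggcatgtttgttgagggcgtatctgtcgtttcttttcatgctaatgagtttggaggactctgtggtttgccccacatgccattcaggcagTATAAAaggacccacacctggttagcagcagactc
Krtap5-1: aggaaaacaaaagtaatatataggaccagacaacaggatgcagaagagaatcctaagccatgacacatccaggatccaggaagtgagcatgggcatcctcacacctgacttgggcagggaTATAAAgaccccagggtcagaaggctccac
Krtap4-6: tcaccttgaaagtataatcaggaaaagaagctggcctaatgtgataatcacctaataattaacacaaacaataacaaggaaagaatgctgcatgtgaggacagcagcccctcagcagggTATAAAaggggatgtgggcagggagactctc
Krtap3-2: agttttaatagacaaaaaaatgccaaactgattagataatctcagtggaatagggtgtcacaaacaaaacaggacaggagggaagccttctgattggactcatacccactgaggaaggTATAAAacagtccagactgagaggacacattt
TATAAA begins 30 to 35 bases before the start in Krtap16-3, Krtap22-2, Krtap5-1, Krtap4-6 and Krtap3-2, and farther upstream in Krtap6-1, and Krtap16-3 also holds TTTATA farther upstream.

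By the loess values, the ratios of Krtap genes were near 0 on most arrays and far above it on a few. The median over the tested genes lay between -0.1 and 0.5 on 74 of the 82 arrays, with -0.041 as the lowest value, and was over 0.5 on 8 arrays and over 1 on 6. This tally depended on the processing, since the median was over 0.5 on 42 arrays and over 1 on 17 in the deposited values, on 41 and 31 with the ratio of the scanner software, and on 14 and 8 without background subtraction. At the median array 16 of the 41 genes were well above background, and 25 genes were so on under 50% of the arrays. In the reference channel Krtap12-1 and Krtap19-5 were above background on 5 arrays and 1 array, so for such genes a ratio near 0 compares background signals and is no level. The 6 arrays over 1 were those of sham mouse M002 at h2 (5.336), 3 Gy mouse M014 at d28 (4.95), 1 Gy mice M006 (2.596) and M007 (2.25) at d21, and 6 Gy mice M020 (1.891) and M016 (1.61) at d28. Mice M019 (6 Gy, 0.63) and M015 (3 Gy, 0.569) at d28 followed. On the 6 highest arrays, 38 or 39 of the 41 genes were above background, and on that of M019 it was 36. All 8 arrays were read on scanner 2.

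**Figure D1:**
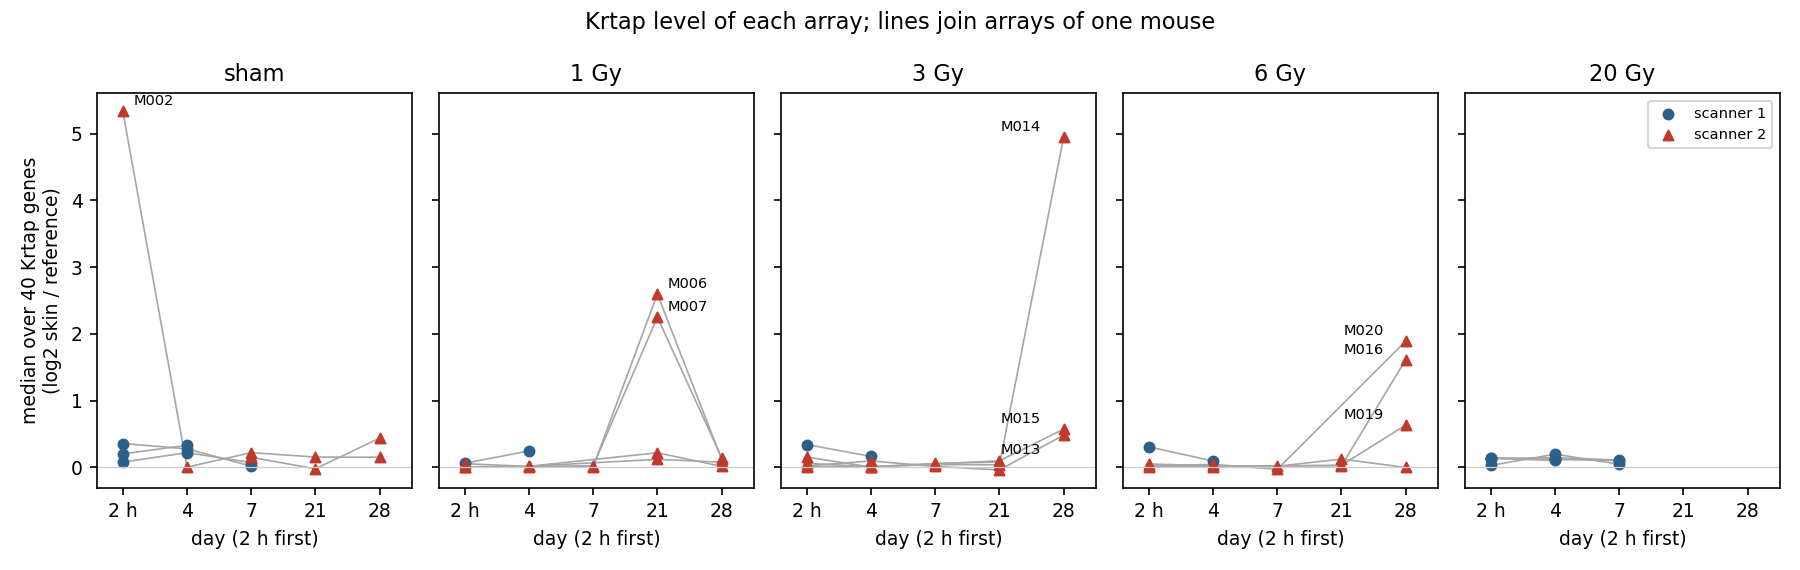
Each point is the median log2 ratio of skin over reference over 40 Krtap genes on 1 array, against the time after exposure in days with 2 h first, in 1 panel per dose, with circles for scanner 1 and triangles for scanner 2 and lines that join arrays of the same mouse. The sham mouse M002 stands at 5.336 at 2 h and M014 at 4.95 on d28, and no 20 Gy array is above 0.195.

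At h2, sham mouse M002 stood apart from all other mice. The other sham arrays at h2 were at 0.355 (M001), 0.2 (M004) and 0.076 (M005), and all 17 irradiated h2 arrays were at or below 0.339. On the array of M002, the middle 50% of the genes lay between 3.821 and 6.432. The next biopsy of the same mouse, at d4, was at 0.001, and the later ones were at 0.218 (d7), 0.152 (d21) and 0.149 (d28), all read on the same scanner as its first. In M002, 35 genes were lower by more than 1 at d4 than at h2 and 0 were higher by more than 1 (median difference -5.111). The other 3 sham arrays at h2 were read on scanner 1, so within that group scanner and mouse cannot be told apart. Whether this biopsy carries the right label was not tested, and the doubt holds for every comparison with sham at h2 and every change from h2 in sham mice.

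After 1 Gy, 2 of the 4 mice were high at d21. M006 went from 0.002 at h2 to 2.596 at d21 and was back at 0.121 on d28, and M007 went from 0.053 to 2.25 and back to 0.145. In these mice 32 and 26 genes were more than 1 higher at d21 than at h2. Mice M008 (0.117) and M009 (0.216) were low at d21, and on d28 the 4 arrays of the group lay between 0.012 and 0.145. The d21 array of M007 differed from the others in composition, with low list medians for epidermis (2.153), skeletal muscle (0.478) and adipocytes (0.211), and the part of this in its Krtap values was not tested.

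After 3 Gy, no array was over 0.339 before d28. At d28, again by loess, M014 was at 4.95, M015 at 0.569 and M013 at 0.48, from 0.036, 0.096 and -0.041 at d21. In the deposited values the family rise from h2 to d28 in this group was smaller, as given below. From h2 to d28, 30 genes of M014 rose by more than 1 and 0 fell by more than 1, against 9 higher in each of M013 and M015. The 3 arrays shared 1 slide and 1 scanner.

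After 6 Gy, 3 of 4 mice were high at d28 by the loess values. M020 was at 1.891, M016 at 1.61 and M019 at 0.63, and M018 was at -0.004. Their values at h2 had been 0.021, 0.049 and 0.003, and M018 had no h2 array. The sham mice of d28 were at 0.149 (M002) and 0.435 (M003). In the deposited values the medians of M020 and M019 were lower at d28 than at h2 (0.743 after 1.117 and 0.429 after 0.637), that of M016 was higher (1.618 after 0.604), and sham M002 and M003 were at 0.494 and 0.83 at d28, so the rise in M020 and M019 depended on the processing. By loess, between h2 and d28, 28, 23 and 15 genes of M020, M016 and M019 were higher by more than 1. At d21, M016 (0.021), M019 (0.029) and M018 (0.122) were all low.

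After 20 Gy, the Krtap medians were low throughout by loess. The arrays ranged from 0.027 to 0.141 at h2, from 0.101 to 0.195 at d4 and from 0.044 to 0.107 at d7. In the deposited values they were between 0.572 and 1.311, above the 6 Gy d28 array of M019 (0.429), and with the ratio of the scanner software between 0.407 and 1.94. These 11 arrays were dim, with median Cy5 intensities of 22 to 33, and the part of this in their ratios was not tested. No 20 Gy mouse was biopsied at d21 or d28, the time points at which the irradiated mice with high levels were found.

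Krtap6-1, of the high glycine-tyrosine class, reached the largest ratio of all members, which ranks ratios and not RNA amounts. It was at 8.395 in M002 at h2 and at 2.197, 1.636 and 0.91 in the other sham mice (M001, M004 and M005). After 1 Gy at d21 it was at 5.749 (M006), 4.895 (M007), 1.66 (M009) and 0.647 (M008), and at d28 the same mice were at 1.014, 0.851, 0.059 and 0.507. At d28 it was at 9.356 (M014), 5.189 (M013) and 2.805 (M015) after 3 Gy. After 6 Gy at d28 it was at 7.787 (M016), 5.887 (M019), 5.527 (M020) and 0.179 (M018), and sham mice of that day were at 1.807 (M002) and 3.361 (M003). So all 3 arrays of 3 Gy and 3 of 4 of 6 Gy had a high value, and the lowest of 3 Gy lay below the higher sham mouse.

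Krtap22-2, of the same class, was at 6.686 in M002 at h2 and at 1.682, 1.083 and 0.503 in M001, M004 and M005. The 1 Gy mice had 5.236 (M006), 4.629 (M007), 1.8 (M009) and 0.047 (M008) at d21. At d28 it was at 6.824, 3.953 and 2.663 in M014, M013 and M015 after 3 Gy and at 6.51, 5.147, 5.092 and 0.901 in M016, M019, M020 and M018 after 6 Gy. As for Krtap6-1, mouse M018 stayed low, and sham mouse M003 at 3.41 overlapped the 3 Gy arrays. Krtap19-1 is another gene of this class, and its probe was bright in the reference as well (mean log2 intensity 8.92 in Cy5 and 9.60 in Cy3). It was at 5.393 in M002 at h2, at 6.521 in M014 at d28 and between 2.525 and 3.705 in M016, M019 and M020. A second probe of this gene read 6.366 and 8.052 in M002 and M014, and 5.77 and 4.384 in M016 and M020, all higher than the chosen probe. In M006 it read 5.186 against 2.664, and in M007 it was lower, at 4.611 against 5.301. The levels of this gene thus depend on the probe.

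Krtap16-3, which was not classed, was at 7.316 in M002 at h2 and at 1.612, 0.982 and 0.625 in M001, M004 and M005. At d28 it was at 8.831, 3.855 and 2.768 in M014, M013 and M015 after 3 Gy and at 6.221, 4.516, 4.426 and 0.334 in M016, M019, M020 and M018 after 6 Gy. Sham mice of that day were at 1.09 (M002) and 3.356 (M003), the second above M015, and sham arrays at d7 reached 2.542. After 1 Gy at d21 it was at 5.589 (M007), 4.948 (M006), 2.833 (M009) and 0.424 (M008).

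Of the ultrahigh sulfur class, with the cysteine-rich proteins of the shaft, Krtap5-1 was at 6.432 in M002 at h2 and at 1.071, 0.451 and 0.363 in M001, M004 and M005. At d28 it was at 7.808 in M014 but at 0.714 in M013 and 1.695 in M015, and after 6 Gy at 2.722 (M020), 2.28 (M016), 1.788 (M019) and -0.006 (M018). The 1 Gy arrays at d21 had 4.967 (M007), 4.085 (M006), 0.655 (M008) and 0.381 (M009). Here the value of M014 was far above those of the other 3 Gy mice, as it was for Krtap4-6. Krtap5-4, brightest after Krtap4-6 in this class, was at 6.644 in M002 at h2 and at 4.503 (M007) and 3.454 (M006) after 1 Gy at d21, with its spot in M014 marked as an outlier by the scanner software. Krtap4-6, the brightest member, had a mean log2 intensity of 13.08 in Cy5 and 15.06 in the reference channel, and its ratio reached 3.688 in M014, 2.507 in M002 and 1.817 in M007 but 0.173 in M006 and 0.609 or less in the 6 Gy mice at d28.

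By the median ratio of the chosen probes, the high sulfur class was lower than the other 2 classes on most intermediate arrays. In M013 at d28 it lay above the ultrahigh sulfur class. Krtap3-1, whose reference signal was also bright (10.11), was at 4.894 in M014, 3.821 in M002, 2.25 in M007 and 0.876 in M020, and below 0 on many other arrays. Its 2 other probes gave 4.486 and 2.344 in M006, where the chosen probe gave 0.745. In M020 they gave 4.121 and 2.389, and in M016 2.568 and 0.734, where the chosen probe gave 0.066. In M007 they gave 3.172 and 1.442, on either side of the chosen probe. So the probes disagreed on these arrays, and the level of the gene there depends on the probe. Krtap13-1 was at 5.336 in M002 at h2, against 0.167 or less in the other sham mice, at 4.274 in M014, at 2.867 (M006) and 1.696 (M007) after 1 Gy at d21, and at 3.154 (M020), 2.551 (M019), 1.412 (M016) and 0.032 (M018) after 6 Gy at d28.

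Krtap3-2 was not near 0 on most arrays. It was above background on 77 of 82 arrays, the other 5 being 20 Gy arrays (3 of 4 at h2 and 2 of 4 at d4), its median over all arrays was 1.298, and 21 arrays were over 2, more than for any other member. At d21 it was at 3.885, 3.663, 1.771 and 1.752 after 3 Gy (M015, M012, M013 and M014) and at 3.23, 2.12 and 0.795 after 6 Gy (M016, M019 and M018), against 0.958 and 0.647 in the 2 sham mice. The 1 Gy mice had 4.522, 3.017, 2.653 and 0.957 (M006, M007, M009 and M008). The 3 Gy and sham values at d21 did not overlap, but with 2 sham arrays the difference of 1.965 (SE 0.914) did not pass the test (limma, Benjamini-Hochberg adjusted p = 0.679). After 20 Gy it was between 0.02 and 0.415 at h2 and between 0.179 and 0.33 at d4, below every sham array of the same time point (lowest 0.522 and 1.297), with differences of -1.835 (SE 0.747, adjusted p = 0.0639) and -1.229 (SE 0.747, adjusted p = 0.204). These sizes are uncertain, since most of the 20 Gy values at h2 and some at d4 are background signal. Without the h2 array of M002 the difference at h2 was -0.635, with an unadjusted p of 0.369 by limma. At d7 the 20 Gy arrays were at 2.726, 1.926 and 0.929 and overlapped sham. Low values were not particular to 20 Gy. At h2, M009 (1 Gy, 0.127), M014 (3 Gy, 0.424), M019 and M020 (6 Gy, 0.171 and 0.056) were also below every sham array. At d4 so were M008 and M009 (0.995 and 0.043), M011, M012, M014 and M015 (0.264, 0.25, 0.055 and 0.31), and M017 and M018 (0.24 and 0.129). The other sublethal arrays of h2 and d4 lay above the lowest sham array.

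Krtap13 and Krtap5-3 stayed low on all arrays, with highest values of 0.221 and 0.455, also where the rest of the family was high. Over all members, 17 had their highest value in M002 at h2, 18 in M014 at d28 and 6 on another array. With outlier spots kept, these counts were 16, 23 and 2. The median of the high glycine-tyrosine class was 5.725 in M002, 6.097 in M014, 3.705 in M016, 3.276 in M007, 3.079 in M006, 2.525 in M020, 2.082 in M019 and 1.931 in M013. That of the ultrahigh sulfur class was 6.234, 5.92, 1.61, 1.888, 3.027, 2.1, 0.774 and 0.333 on the same arrays. For the high sulfur class it was 5.321, 4.754, 1.178, 1.234, 2.183, 1.824, 0.342 and 0.473. Among these arrays, the ultrahigh sulfur class was highest in M002, the high glycine-tyrosine class was highest on the others, and in M006 these 2 classes were nearly level. Since a ratio also depends on how much of a gene's RNA the reference holds, this order is one of ratios and not of RNA amounts.

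**Figure D2:**
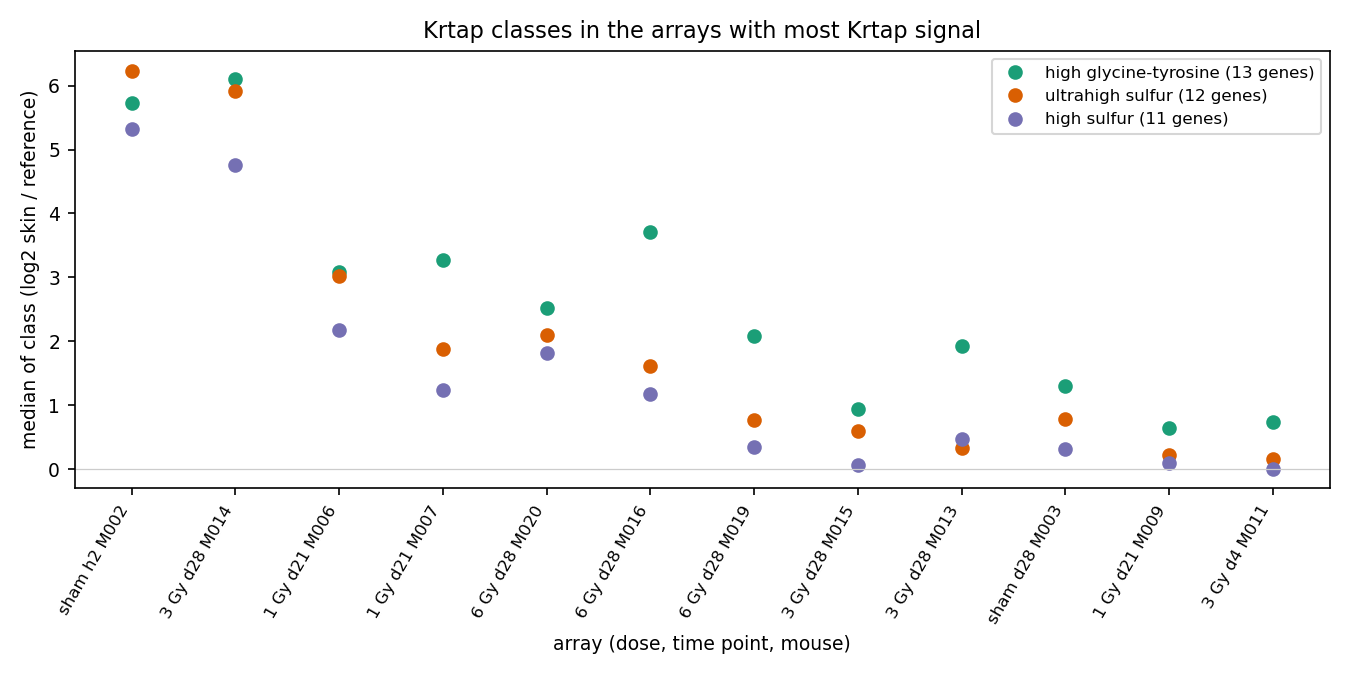
Points are the median log2 ratios of skin over reference of 3 classes of Krtap genes (13, 12 and 11 genes tested) on the 12 arrays with most Krtap signal, named by dose, time point and mouse. In sham M002 at h2 the ultrahigh sulfur class (6.234) lies above the high glycine-tyrosine class (5.725), and in 6 Gy M016 at d28 the order is turned (1.61 and 3.705).

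Across 40 genes, with outlier spots kept, the ratios of M002 at h2 and M014 at d28 had a Pearson's r of 0.828 and a Spearman's rho of 0.795. Over the 21 pairs of M002, M014, M006, M007, M020, M016 and M019, r ranged from 0.599 (M002 and M019) to 0.922 (M006 and M020). These are correlations across genes, which are not independent replicates and share 1 reference RNA, and pairs of the remaining arrays were not compared.

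**Figure D3:**
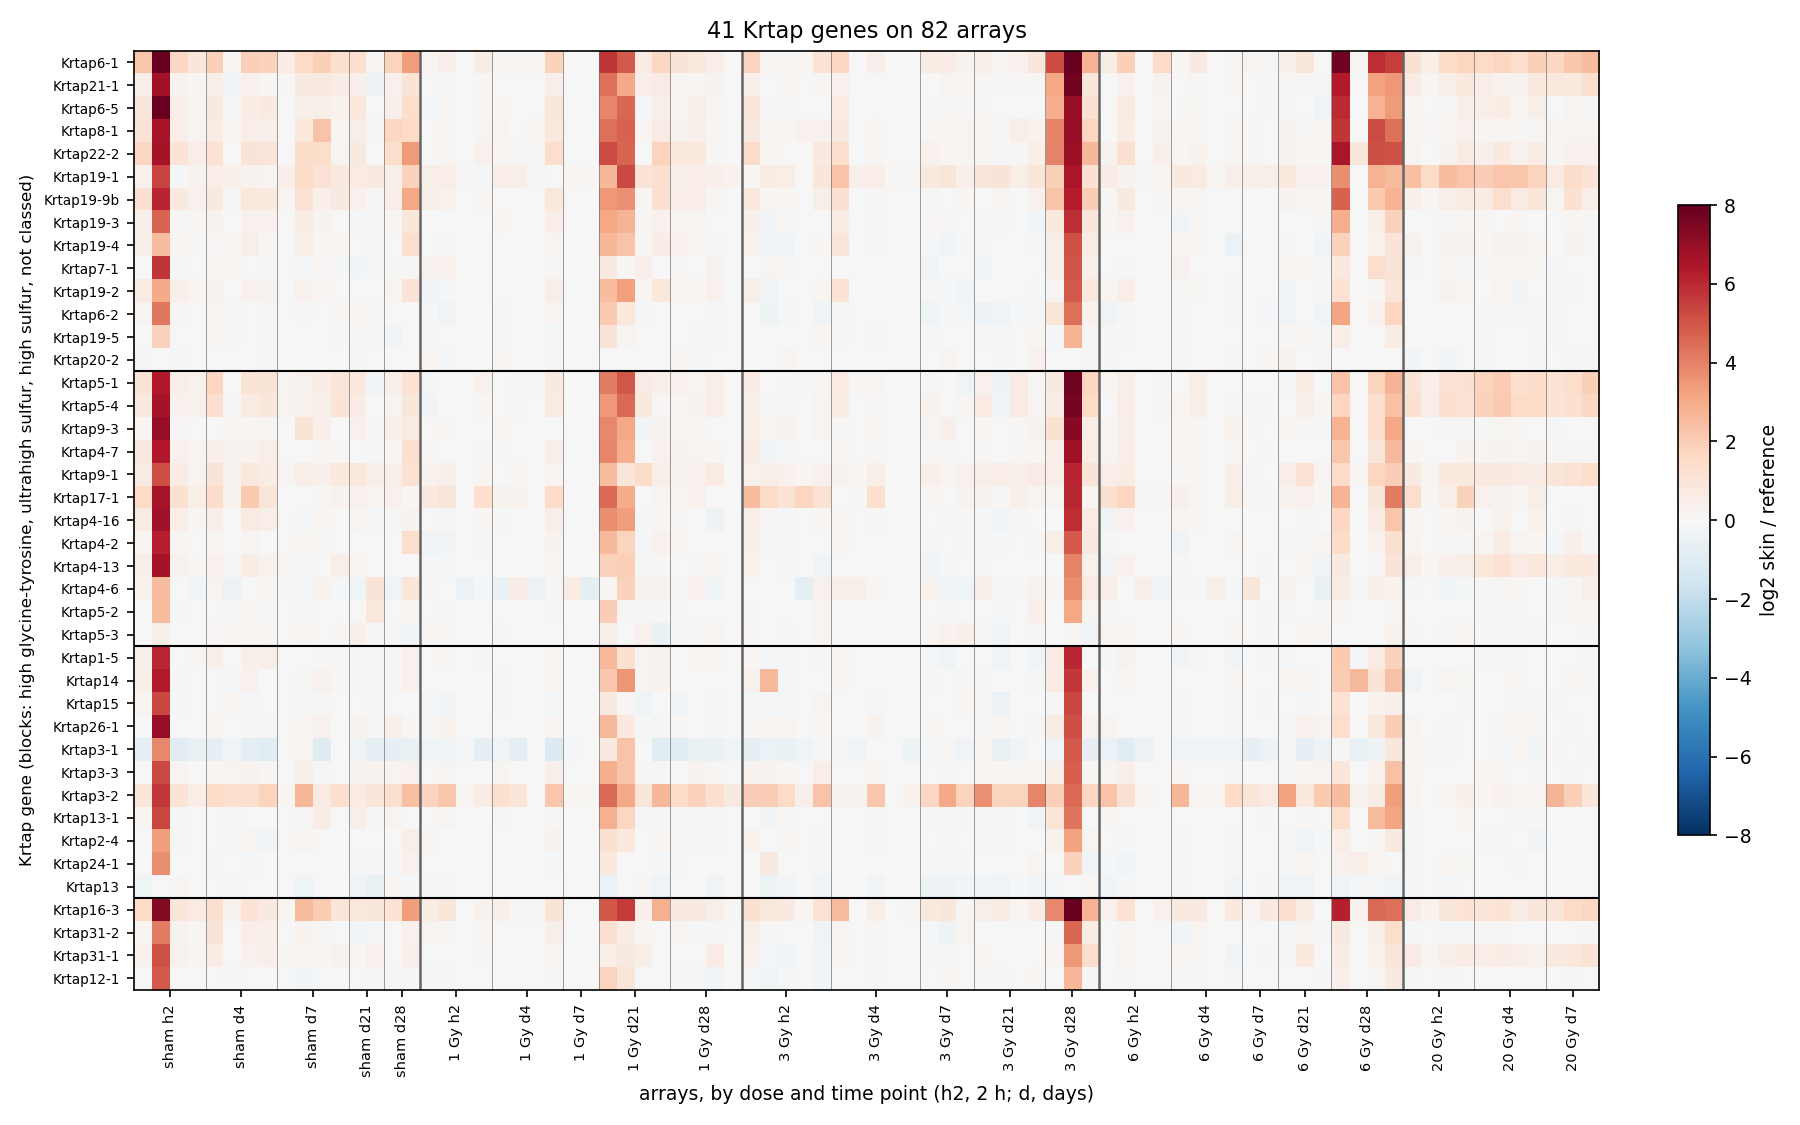
Colour gives the log2 ratio of skin over reference of 41 Krtap genes (lines) on 82 arrays (columns, by dose and time point), with outlier spots kept and white at 0. The dark columns are sham M002 at h2 and M014 at d28, paler ones are M006, M007, M016, M019 and M020, and Krtap3-2 is coloured on many arrays outside these columns.

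To ask which doses changed Krtap transcripts, limma was used to set every dose against the sham arrays of its time point, over all probes tested and with all 82 arrays in the fit. A gene was called where its adjusted p was under 0.05 and it differed by a factor of 2 or more. After sublethal doses 0 of the 40 genes were called in any of the 15 comparisons. Summed over these, there were 15 lower calls in the deposited values, 13 higher calls with Cy5 alone and 7 higher calls with all sham arrays as reference. The share of all probes called was not counted under these 3 settings. In the loess fit against sham of the same time point, the share of all probes called after 1 Gy was 0% at h2, d4, d7 and d21 and 0.0165% at d28. After 3 Gy it was 0% at h2, 5.26% at d4, 0% at d7 and d21 and 0.00993% at d28. After 6 Gy it was 0% at h2, 0.0396% at d4, 0.0066% at d7, 0% at d21 and 0.0198% at d28.

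Even so, most genes leaned one way at some time points. At h2 the 1, 3 and 6 Gy groups had median differences of -1.305, -1.313 and -1.271 over the 40 genes, beside -0.004, 0.014 and 0.001 over all probes, and 29, 28 and 27 genes were lower at an unadjusted p under 0.05, which 11.7%, 12.58% and 6.417% of all probes had in either direction. Without the h2 array of M002 these medians were -0.191, -0.141 and -0.115. All these comparisons share the same 4 sham arrays. At 1 Gy d21 the median was 1.09, with 17 genes higher at an unadjusted p under 0.05 (3.929% of all probes) and a lowest adjusted p of 0.821 (Krtap19-4). This median was 0.695 without mouse M006, and 2.677 with the ratio of the scanner software. At 3 Gy d28 it was 1.528 (22 genes beside 8.259% of all probes, lowest adjusted p = 0.335 for Krtap19-5), or 0.153 without the d28 array of M014, or 0.296 in the deposited values. At 6 Gy d28 it was 0.662 (lowest adjusted p = 0.202 for Krtap21-1), where 7 of 40 genes were near the 14.1% of all probes. This median was 1.07 without mouse M018 and -0.194 in the deposited values. Krtap15, Krtap19-5, Krtap24-1, Krtap26-1 and Krtap6-2 passed the filter only through 1 Gy d21, 3 Gy d28 or 6 Gy d28. These genes entered the test through groups with high arrays, so the late medians and unadjusted counts are no support for a difference.

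Differences of the bright genes of the high glycine-tyrosine class were large at the late time points, and so were their errors. Krtap6-1 was higher by 3.2 (SE 1.302, adjusted p = 0.462) at 3 Gy d28 and by 2.261 (SE 1.235, adjusted p = 0.403) at 6 Gy d28. Krtap22-2 differed by 2.579 (SE 0.989, adjusted p = 1) at 1 Gy d21 and by 2.058 (SE 1.043, adjusted p = 0.609) at 3 Gy d28. Within groups the pooled SD of the Krtap median was 0.83 on the log2 scale. In the remaining sublethal comparisons, at d4 and d7 of each dose, d21 of 3 and 6 Gy and d28 of 1 Gy, the medians lay between -0.25 and -0.037.

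After 20 Gy, 4 genes were called lower at h2, where 3.33% of all probes were called lower. Krtap22-2 was at 0.234, 0.055, 0.288 and 0.583 in the 20 Gy mice, of which the highest lay above the lowest sham array (0.503), and its difference was -2.198 (SE 0.808, adjusted p = 0.0391). Krtap4-2 was at 0.225, 0.052, 0.097 and 0.112, against 6.234 in M002 and 0.169, 0.183 and 0.034 in the other sham mice, which gave -1.534 (SE 0.55, adjusted p = 0.0344). Apart from M002 the 2 groups overlapped for that gene. Krtap31-2 was at -0.075, 0.023, -0.154 and -0.181 after 20 Gy and at 4.144, 0.29, 0.181 and 0.073 in sham, with an adjusted p of 0.0442. Krtap12-1 was at 0.042 or less after 20 Gy, and at 4.904 in M002 and 0.027 or less in the other sham mice (adjusted p = 0.0359). Both Krtap31-2 and Krtap12-1 were not well above background on any 20 Gy array at h2, so the size of their differences is not known. Krtap12-1 was above background on 10 arrays in all and passed the filter through groups with high arrays, sham at h2 among them, so its call is no support for a difference.

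These 4 calls depended on single mice, and most of their size came from M002. Without its h2 array 0 genes were lower by the same test, and the differences were -0.799 for Krtap22-2 and -0.007 for Krtap4-2. Leaving out any 1 of the 20 Gy mice also left 0 genes lower, and without sham mouse M005 there were 22. The share of all probes lower was not counted in the fits without a whole mouse. On scanner 1 alone, where the other 3 sham arrays and all 20 Gy arrays of h2 were read, 0 genes were lower and 1 was higher. The family median at h2 was -1.253 with 24 genes lower at an unadjusted p under 0.05 (36.32% of all probes in either direction), and it was -0.057 without the array of M002.

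At d4 and d7 after 20 Gy 0 genes were called, with medians of -0.014 and 0, while 11.2% and 1.83% of all probes were called. By the unadjusted p, 2 genes were higher at d4 and 1 at d7 (under 0.05), beside 42.89% and 12.65% of all probes. Krtap19-1 differed most at d4: it was at 1.939, 2.233, 2.243 and 1.774 after 20 Gy and at 0.509, 0.264, 0.198 and 0.437 in sham, without overlap (1.696, SE 0.725, adjusted p = 0.0644). At h2 it was also at 2.377, 1.518, 2.452 and 2.239 after 20 Gy, above the sham arrays other than M002 (0.314 at most). Krtap4-13, of the ultrahigh sulfur class, was at 0.635 to 1.132 after 20 Gy at d4 and at 0.072 to 0.563 in sham (0.541, SE 0.215, adjusted p = 0.0466), under the fold change asked for. All 20 Gy arrays came from scanner 1 while the sham arrays came from both, and with scanner as a term in the fit 1 gene was called higher at d4 and d7 together.

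Set directly against 6 Gy, 20 Gy showed 0 called genes at h2, d4 and d7, with medians of 0.006, 0.06 and 0.072, where 5.15%, 5.39% and 3.77% of all probes were called. At an unadjusted p under 0.05, 1, 3 and 1 genes were higher, beside 25.35%, 26.32% and 16.52% of all probes in either direction. All 20 Gy arrays were read on scanner 1, against 1 of 4 arrays of 6 Gy at h2, 1 of 4 at d4 and 0 of 2 at d7, so dose and scanner cannot be told apart at d7. Over the 3 time points, 1 gene was called higher with scanner as a block, and 19 higher and 2 lower with the ratio of the scanner software, each without a count over all probes. Krtap4-13 at d4 had the lowest adjusted p (0.00232) with a difference of 0.877 (SE 0.215), short of a fold change of 2. The late effect (d21 and d28) minus the early effect (h2, d4 and d7) of a sublethal dose had medians of 0.918, 1.329 and 0.994 for 1, 3 and 6 Gy, with 0 genes called where 0%, 0.0334% and 0% of all probes were called. By an unadjusted p under 0.05, 6, 20 and 5 genes were higher, beside 6.165%, 12.98% and 10.88% of all probes in either direction. Without mouse M002 the medians for 1 and 6 Gy were 0.47 and 0.393, and without M014 that for 3 Gy was 0.587. The 20 Gy effect at d7 minus that at h2 had a median of 1.289, 0 genes called and 3 higher at an unadjusted p under 0.05, where 5.59% of all probes were called and 21% had such a p. Without the h2 array of M002 it was 0.067. The late minus early effects and this difference contain the h2 sham arrays, while 20 Gy against 6 Gy uses no sham array.

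**Figure D4:**
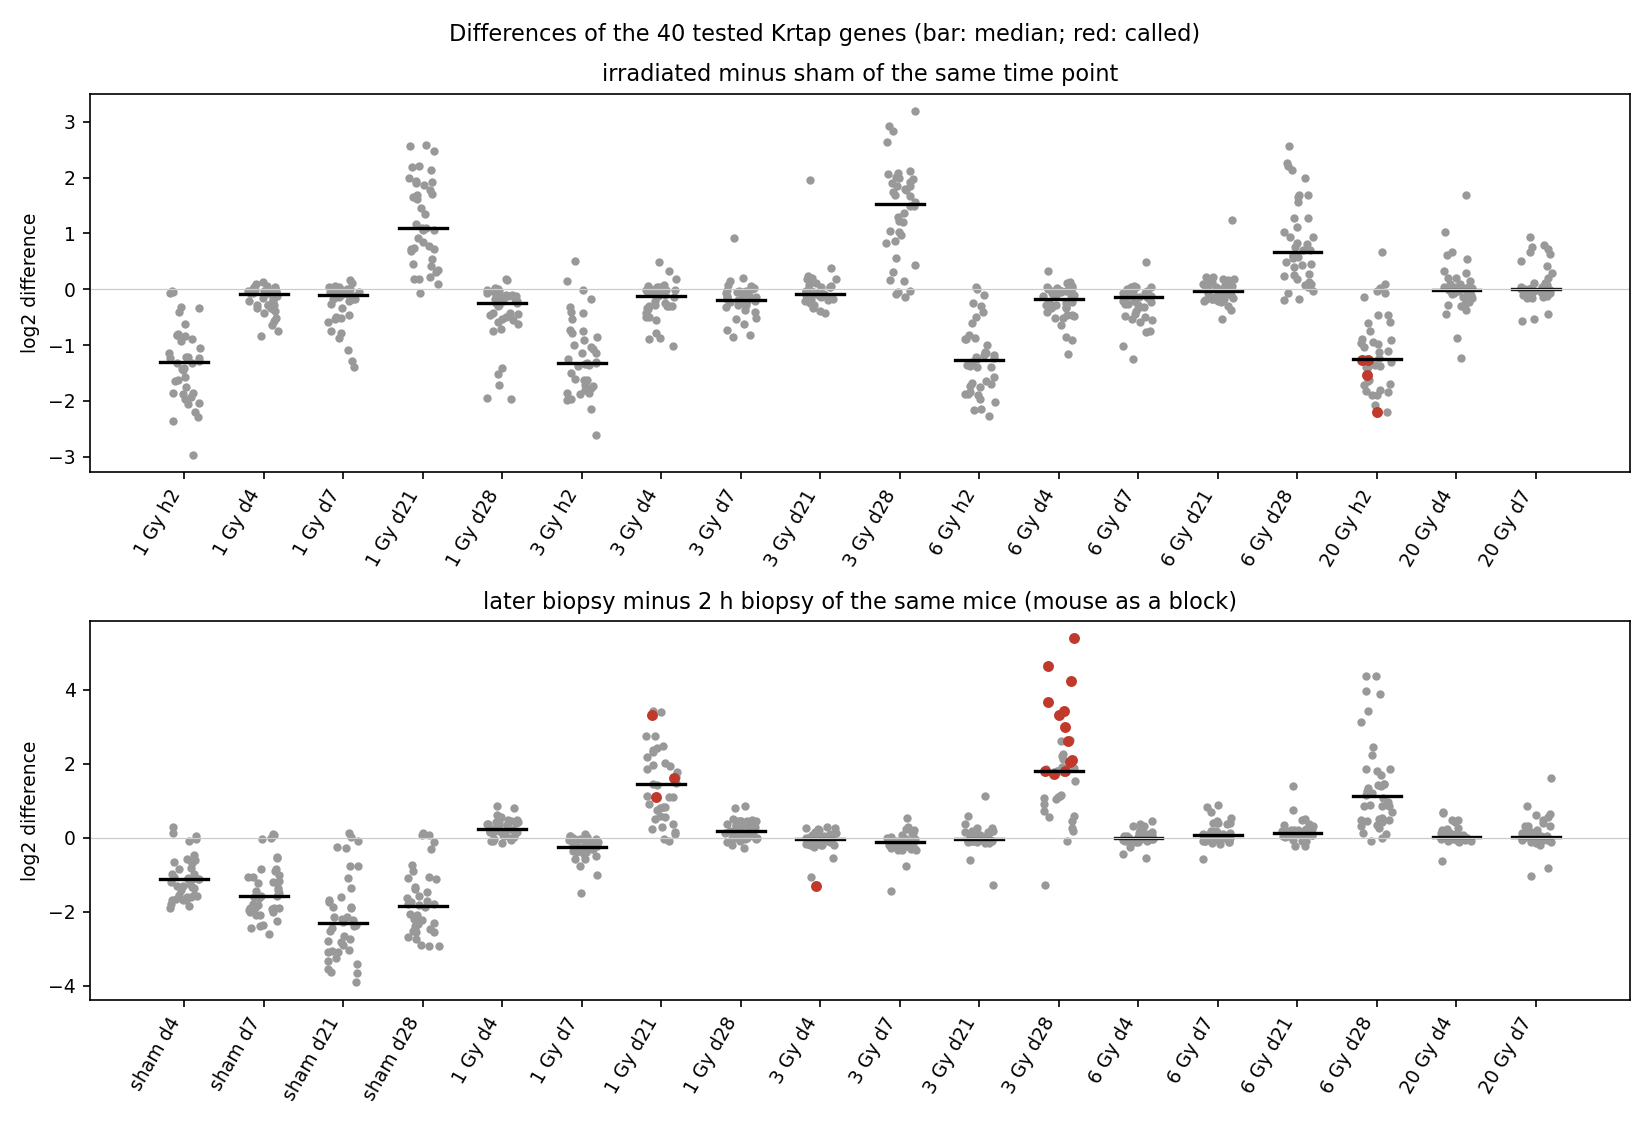
Each point is the log2 difference of 1 of 40 tested Krtap genes, irradiated minus sham in the upper panel and later biopsy minus h2 with the mouse as a block in the lower panel. Bars are medians and called genes are red. The lower panel also takes in later arrays of M003, M008 and M018, which had no h2 array. The medians at h2 are between -1.313 and -1.253 for all doses, and 13 genes are red at 3 Gy d28 in the lower panel.

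To follow the same animals over time, later biopsies were compared with the h2 biopsy with the mouse as a block in the limma fit. In sham mice 0 genes were called at d4, d7, d21 or d28, with medians of -1.118, -1.579, -2.313 and -1.838 where 0%, 0.191%, 0% and 0.0198% of all probes were called. By an unadjusted p under 0.05, 19, 30, 31 and 22 genes were lower, beside 4.341%, 13.74%, 8.6% and 10.23% of all probes. At d21 and d28 the sham mice were M002 and M003, and M003 had no h2 array, so only M002 had both time points. Without the h2 array of M002 the sham medians were 0.018, -0.006, -0.095 and 0.165. The last 2 of these are indirect, through d4 and d7 arrays, since no sham mouse then had both time points. Summed over the 4 time points there were 29 lower calls in the deposited values and 2 with median centring, where the share of all probes called was not counted.

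After 1 Gy, 3 genes were called higher at d21, where 0.132% of all probes were. Krtap22-2 rose by 3.319 (SE 0.826, adjusted p = 0.0452), from 0.348, -0.033, 0.151 and 0.018 at h2 (M010, M006, M007 and M009) to the d21 values given above, where M010 had no d21 array and M008 no h2 array. Krtap19-4 rose by 1.62 (SE 0.334, adjusted p = 0.0229) and was at 2.631, 2.285, 0.61 and 0.157 at d21 (M006, M007, M009 and M008), against 0.004 or less at h2. Krtap4-13 rose by 1.108 (SE 0.236, adjusted p = 0.0253), with 1.888 in M007, 1.815 in M006, 0.11 in M009 and -0.078 in M008 at d21. None of the 3 genes was well above background at h2 in M006, M007 or M009, so the rises start from background signal. M006 and M007 held the high values of all 3 genes, and without either mouse 0 genes were called, while 9 were called without mouse M008 or M009, and also 9 without sham mouse M002, which enters through the shared spread and adjustment. The call of Krtap22-2 was lost in 11 of 24 fits that left out 1 mouse, and 0 genes were called with outlier spots kept, with median centring or with Cy5 alone, against 20 with the ratio of the scanner software and 15 in the deposited values. For these alternatives the share of all probes called was not counted. The family median was 1.443, and by an unadjusted p under 0.05 there were 22 higher genes, beside 14.76% of all probes. Without M006 this median was 0.861. Krtap15, Krtap19-5, Krtap24-1, Krtap26-1 and Krtap6-2 passed the filter only through late groups with high arrays, 1 Gy d21 among them. The family median and the unadjusted count are therefore no support for a rise. At d4, d7 and d28, 0 genes were called and 0 had an unadjusted p under 0.05, which 3.311%, 24.93% and 19.55% of all probes had, with medians of 0.248, -0.241 and 0.18 and 0%, 0.00661% and 0.472% of all probes called.

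After 3 Gy, 13 of 40 genes were called higher at d28, against 0.497% of all probes, and the family median was 1.812 (29 genes at an unadjusted p under 0.05, beside 20.08% of all probes). Krtap6-1 rose by 5.394 (SE 1.112, adjusted p = 0.00521), from 0.087, 0.168 and 1.121 at h2 in M013, M014 and M015 to 5.189, 9.356 and 2.805. Krtap16-3 rose by 4.641 (SE 0.947, adjusted p = 0.00482), from 0.746, 0.127 and 1.18. Krtap22-2 rose by 4.233 (SE 0.84, adjusted p = 0.0039), from 0.061, 0.058 and 0.74. All 3 of these genes were higher at d28 in all 3 mice. Of the 13 genes, 8 were of the high glycine-tyrosine class (also Krtap6-5, Krtap19-9b, Krtap19-1, Krtap19-3, Krtap19-2 and Krtap6-2, with rises between 2.06 and 3.675), 2 of the ultrahigh sulfur class (Krtap5-1 with 3.428 and Krtap4-6 with 1.739), 0 of the high sulfur class, and 3 were not classed (besides Krtap16-3, Krtap31-1 with 1.811 and Krtap31-2 with 1.795). Krtap6-5, Krtap19-3, Krtap19-2 and Krtap6-2 were not well above background on any h2 array of these mice, so their rises start from background signal. Krtap6-2 passed the filter only through groups with high arrays, 3 Gy d28 among them, so the count of 13 holds a gene that entered the test through the group tested. Krtap15, Krtap19-5, Krtap24-1 and Krtap26-1, which also passed only through late groups with high arrays, are among the 40 genes of the family median. Without mouse M014 0 genes were called, the family median was 0.408, and Krtap6-1 was higher by 3.488, Krtap22-2 by 2.978 and Krtap16-3 by 2.593. Without mouse M002, 24 genes were called. The count was 8 with median centring or Cy5 alone and 24 with the ratio of the scanner software, and the median was 0.511 in the deposited values and 4.124 with that ratio. For these alternatives and the left-out mice, the share of all probes called was not counted. In M014 at d28, 8 member spots were marked as outliers and not used, against 0.7043% of all values of that array. They were of Krtap17-1, Krtap4-13, Krtap4-2, Krtap5-4 and Krtap9-3 (ultrahigh sulfur) and of Krtap19-4, Krtap21-1 and Krtap8-1 (high glycine-tyrosine). The split of the 13 genes by class was made without these values.

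By loess, the family stayed near its h2 level at earlier times after 3 Gy, while the d4 level of M011 depended on the processing. At d4, 1 gene was called lower, where 4.1% of all probes were: Krtap17-1, of the ultrahigh sulfur class, went from 2.456, 1.506, 1.104, 1.746 and 1.158 at h2 (M011 to M015) to 0.039, 0.08, 1.349, 0.015 and 0.032 (difference -1.291, SE 0.457, adjusted p = 0.048), lower in 4 of 5 mice. In sham this gene was at 0.439 to 1.605 on 3 arrays at h2, where the spot of M002 was marked as an outlier (6.566 when kept), and at 0.271 to 2.075 at d4, and between -0.013 and 0.345 from d7 on, so sham mice had low values later too. With Cy5 alone the direction was reversed (0.363). The call was lost with the ratio of the scanner software (adjusted p = 0.761), when outlier spots were kept (adjusted p = 0.231), and in 16 of 24 fits that left out 1 mouse, which include mice of other doses, with the highest adjusted p without M011 (0.224). At d7 and d21 0 genes were called, with medians of -0.102 and -0.021, 1 gene lower at an unadjusted p under 0.05 at each (beside 6.996% and 14.91% of all probes in either direction), and 0.00661% and 0.112% of all probes called.

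After 6 Gy, 0 genes were called at any later time point, with medians of -0.014, 0.071, 0.142 and 1.126 at d4, d7, d21 and d28, and 0% of all probes were called at each. The median of d28 was -0.023 in the deposited values, with 4 genes called higher (the share of all probes was not counted), and 2.179 with the ratio of the scanner software. At d28, 16 genes were higher at an unadjusted p under 0.05, beside 6.78% of all probes, and Krtap22-2 came closest (4.368, SE 0.824, adjusted p = 0.0538), followed by Krtap8-1 (3.978, SE 0.782, adjusted p = 0.0626). Krtap6-1 differed by 4.371 (SE 1.091, adjusted p = 0.229). Krtap15, Krtap19-5, Krtap24-1, Krtap26-1 and Krtap6-2 passed the filter only through late groups with high arrays, 6 Gy d28 among them. So the median and the unadjusted count of d28 are no support for a rise. At d4, d7 and d21, 0 genes had an unadjusted p under 0.05, beside 4.344%, 2.605% and 11.45% of all probes. Without mouse M018, which was low at d28 and had no h2 array, 6 genes were called higher.

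After 20 Gy the within-mouse medians were 0.027 at both d4 and d7, with 0 genes called, 1 higher at an unadjusted p under 0.05 at each (4.483% and 24.56% of all probes in either direction), and 0.0957% and 7.03% of all probes called. When the change in irradiated mice was set against the same change in sham mice, the medians were 3.568 at 1 Gy d21, 3.933 at 3 Gy d28 and 3.09 at 6 Gy d28, and 0 genes were called. By an unadjusted p under 0.05, 37, 34 and 32 genes were higher, beside 4.436%, 8.144% and 8.15% of all probes in either direction. The sham change contains the fall of M002 from h2 and 2 mice at d21 and d28.

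Other genes of the hair follicle were high on the same arrays. The median of 10 hair shaft keratins was 5.26 in M014 at d28, 5.025 in M002 at h2, 3.103 in M020, 2.84 in M006, 1.897 in M019, 1.749 in M016 and 0.847 in M007. Over all 82 arrays it correlated with the Krtap median at r = 0.947 (rho = 0.624), a value set by the few high arrays. Krt84 and Krt32 were the brightest of this list, and Krt33a, a keratin of the shaft, was at 9.179, 8.571, 6.59, 6.551, 6.498, 5.881 and 6.177 in M002, M014, M020, M006, M019, M016 and M007. The median of 8 inner root sheath genes was 6.982 in M002, 6.117 in M014, 4.475 in M007, 3.981 in M016, 3.624 in M020, 3.488 in M019 and 2.997 in M006 (r = 0.897, rho = 0.475).

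Inner root sheath genes were also high on arrays where Krtap genes were not. In M014 at d21, Krt71 was at 6.552, Krt25 at 5.219, Tchh at 5.033 and Krt27 at 2.82, and the early shaft keratin Krt35 was at 3.55, while the Krtap median was 0.036 and Krt31 was at 0.184. At d28 the same mouse had Krt71 at 7.513, Krt31 at 5.461 and the Krtap median at 4.95. Sham mouse M003 at d7 had Krt71 at 5.172 and Tchh at 4.793, with 34 of 41 Krtap genes above background but a median of 0.148 by loess. On that array the Krtap median was 0.979 in the deposited values and 2.192 with the ratio of the scanner software, so the contrast with the sheath genes rests on the loess values. The next biopsy of M003, at d21, had medians of -0.019 for the sheath list and -0.024 for Krtap genes.

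The regulators of hair matrix and shaft had a median of 2.773 in M002, 1.434 in M014 and 0.752 or less in M006, M007, M016, M019 and M020 (r = 0.711, rho = 0.386). Foxn1, Msx2, Dlx3 and Hoxc13, transcription factors of the hair matrix and shaft, were at 3.268, 5.236, 2.35 and 1.905 in M002 and at 2.788, 2.731, 1.812 and 0.322 in M014. In M007, where 39 Krtap genes were above background, they were at 0.484 or less. For the other lists, r with the Krtap median over the 82 arrays was 0.333 for melanocyte pigment genes, 0.208 for resting follicle and bulge, 0.166 for erythroid genes and between -0.212 and -0.001 for epidermis, proliferation, fibroblast and matrix, adipocyte, skeletal muscle and leukocyte genes.

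**Figure D5:**
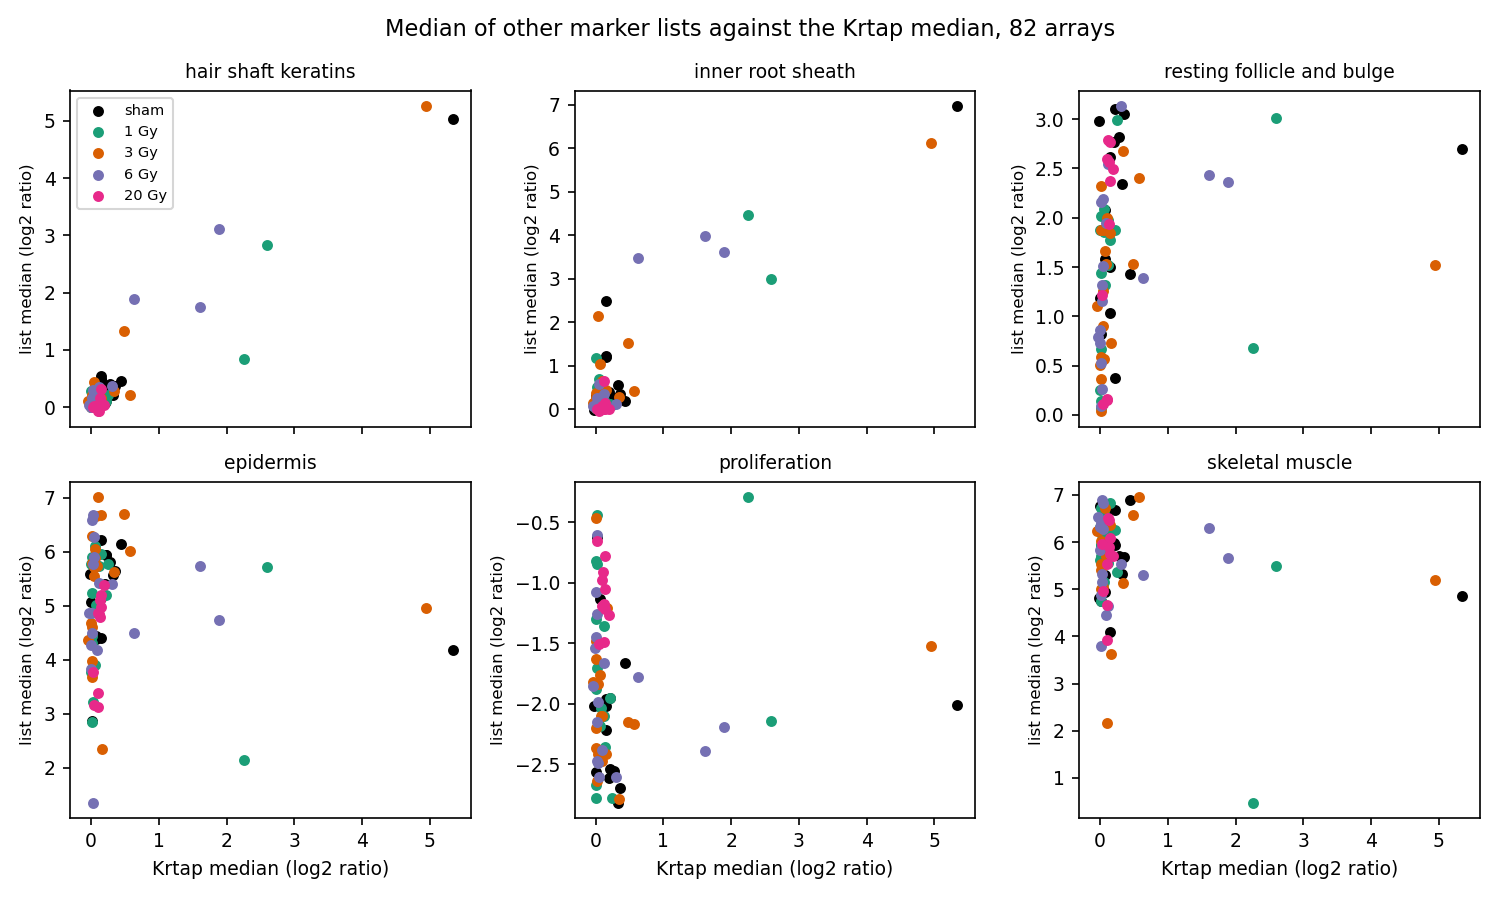
Points are the 82 arrays, with the Krtap median (log2 ratio) on the horizontal and the median of another marker list (log2 ratio) on the vertical axis, coloured by dose. Hair shaft keratins and inner root sheath genes rise with the Krtap median over the few high arrays (r = 0.947 and 0.897), while epidermis and skeletal muscle do not (r = -0.063 and -0.212).

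In the comparisons, few hair keratin and sheath genes were called. At 20 Gy h2, 2 of 10 hair shaft keratins (Krt32 and Krt34), 1 of 8 inner root sheath genes (Tchh) and 7 of 14 regulators (among them Gata3, Lipm, Foxn1 and Msx2) were lower, beside 3.33% of all probes, and the list medians were -1.198, -1.7 and -0.879. Without the h2 array of M002, 0, 0 and 2 genes (Lipm and Ctsc) were lower, beside 3.889% of all probes, and the medians were -0.077, -0.216 and -0.332. Some other lists lay farther from 0 in that fit: epidermis (-1.25), fibroblast and matrix (-1.197), adipocyte (-1.127), resting follicle and bulge (-0.794) and proliferation (1.23). Melanocyte, leukocyte, erythroid and skeletal muscle lists were at -0.605, -0.212, -0.205 and -0.164. For the within-mouse change at 3 Gy d28, 0 genes of the hair shaft keratin, inner root sheath and regulator lists were called, with medians of 1.411, 2.116 and 0.293. Among 15700 other tested genes, the ones most like the Krtap median over the arrays, chosen after their values were seen, were Krt26 (r = 0.973), Krt87 (0.951), Cryba4 (0.94), Krt86 (0.94), Krt31 (0.938) and Gprc5d (0.934), of which the keratins are genes of the sheath or the shaft.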

How the data were processed

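RNA of skin biopsies was hybridized against a reference RNA on Agilent 4x44K two-color arrays without a dye swap. Per the file headers, scanner 1 used Feature Extraction 11.0.1.1 and scanner 2 version 10.10.1.1. The files the authors deposited give, for each of 45018 spots, median Cy5 and Cy3 intensity and local background, without normalization, together with the log10 ratio made by the scanner software. The authors also deposited normalized log2 values, by steps not given in the sources used here.

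From the intensities, limma 3.58.1 (R 4.3.3) was used for normexp background correction with an offset of 50 and loess normalization within arrays. Control spots (1639) and 25056 outlier values (0.7044%) were left out, and repeated spots were averaged. Of the resulting 41174 probes, 27572 had a symbol. A probe was tested if the software marked its Cy5 signal well above background on 50% or more of any group's arrays (30294 probes). All 82 arrays entered a fit of group means (59 residual degrees of freedom) and a fit with the mouse as a fixed block (40 degrees of freedom), since labels tie repeated biopsies to 1 animal. Deviations from the group means correlated at a median of 0.104 over 111 pairs of arrays of the same mouse and -0.039 over 429 pairs of different mice. P-values were adjusted by Benjamini-Hochberg over all probes tested, and the scripts were tested on simulated data.

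Members and lists were chosen with earlier results of these data known. The classes come from family numbers, since proteins were not used here. Named genes were the 3 brightest of each class, the 3 largest rises and falls among called genes and the 2 brightest of a list, and others were named after their values were seen. For 20 Gy the rule of 2 or more time points in 1 direction found no gene. The number of arrays limits the precision, and p-values between doses treat biopsies of 1 mouse as separate. Alternatives covered normalization, background, reference channel, filters, scanner, slide, scan date, mouse, sham reference, probes, outlier spots and left-out mice.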

Additional observations from a re-analysis of the deposited data

Results flagged for a closer look

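In 15 groups of 4 to 10 arrays, Dixon's test of the highest or lowest array was applied to the Krtap median, and 4 arrays lay beyond its critical value, where chance gives about 1 group in 20. The sham array of M002 at h2 (5.336) was far above its nearest neighbour (0.355). The 1 Gy d4 array of M010 (0.244, nearest 0.014) and the 6 Gy h2 array of M017 (0.305, nearest 0.049) were the only arrays of their groups read on scanner 1, so mouse and scanner cannot be told apart there. The 20 Gy h2 array of M022 was low (0.027, nearest 0.128), with all 4 arrays of its group on scanner 1. The value of 4.95 in M014 at d28 stood in a group of 3, which was not tested in this way.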

How the results depend on the processing

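Counts that differed by over 1.5 times and medians that differed by more than the pooled SD of 0.83 were as follows, and the cause was not tested. Counts are of Krtap genes called, summed over comparisons where several are named, and other values are median log2 differences. The share of all probes called was not counted under these alternatives, except at 20 Gy h2 without the h2 array of M002. With arrays centred on the median, 14 genes were lower at 20 Gy h2, 1 at 20 Gy d4 and d7 and 2 against 6 Gy, and within mice 0 were higher at 1 Gy d21, 8 at 3 Gy d28 and 2 lower in sham. The scanner software's ratio gave 3 higher and 1 lower at 20 Gy d4 and d7, 19 higher and 2 lower against 6 Gy, and medians of -2.155 (1 Gy h2), -2.213 (3 Gy h2), 2.677 (1 Gy d21), 0.922 (20 minus 6 Gy d7), 1.837 and 2.193 (late minus early, 1 and 3 Gy). Within mice it gave 20 genes at 1 Gy d21, 24 at 3 Gy d28 and 2 elsewhere, with medians of 3.189, 4.124, 2.179 (6 Gy d28) and -3.392 (sham d21). The deposited values gave 15 lower after sublethal doses, 0 lower at 20 Gy h2 and 6 higher against 6 Gy, with medians of 0.296 (3 Gy d28), -0.194 (6 Gy d28) and 0.975 (20 minus 6 Gy d7). Within mice they gave 15 at 1 Gy d21, 4 at 6 Gy d28, 29 lower in sham and 13 elsewhere, with medians of 0.511 (3 Gy d28) and -0.023 (6 Gy d28), of which the 6 Gy values turned below 0. Without background subtraction 1 gene was higher at 20 Gy d4 and d7, and 1 Gy d21 had 2.065. Cy5 alone gave 13 higher after sublethal doses, 4 higher and 1 lower at 20 Gy h2 and 14 higher at d4 and d7, with -0.187 (20 Gy h2) and 1.382 (20 Gy d4). Within mice it gave 0 at 1 Gy d21, 8 at 3 Gy d28, 1 lower in sham and 29 elsewhere, and Krtap17-1 at 3 Gy d4 reversed to 0.363. At 20 Gy h2, 2 genes were lower with no filter and 1 with a filter on 50% of all arrays, which gave 1.925 at 1 Gy d21.

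With scanner as a block 1 gene was higher at 20 Gy d4 and d7 and 1 against 6 Gy. Slide as a random block left 0 lower at 20 Gy h2, and scan date gave 1 higher at d4 and d7. Scanner 1 alone gave 2 higher and 2 lower after sublethal doses, 1 higher and 0 lower at 20 Gy h2, 1 higher and 2 lower at d4 and d7, and h2 medians of -0.11, 0.099, 0.036 and -0.057 for 1, 3, 6 and 20 Gy. Scanner 2 alone, with M002 as its single sham array at h2, gave 100 lower calls summed over the sublethal comparisons, tested against that 1 array at h2, and medians of -5.202, -5.247 and -5.198. All sham arrays as reference gave 7 higher after sublethal doses, 0 lower at 20 Gy h2 and h2 medians of -0.43, -0.423, -0.403 and -0.346. Keeping outlier spots left 0 at 1 Gy d21 and 0 elsewhere within mice. With no replicate block, 1 gene was called at 1 Gy d21, 1 at 6 Gy d28 and 0 elsewhere, with -1.261 (sham d21) and -0.849 (sham d28), and with the mouse as a random replicate block Krtap22-2 at 20 Gy h2 was at -2.24 (adjusted p = 0.0377). Against the change in sham, 0 genes were called at 1 Gy d21 and 3 Gy d28, with medians of 3.568, 3.933 and 3.09.

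Without the h2 array of M002, 1 gene was higher and 0 lower at 20 Gy h2, 1 higher at d4 and d7 and 2 against 6 Gy, with h2 medians of -0.191, -0.141, -0.115 and -0.057. Within mice 9 were called at 1 Gy d21, 25 at 3 Gy d28 and 5 at 6 Gy d28, and sham medians were 0.018, -0.006, -0.095 and 0.165. Without the d28 array of M014, 14 were lower at 20 Gy h2, 1 higher at d4 and d7 and 1 against 6 Gy, and 3 Gy d28 had 0.153. Within mice 6, 1 and 1 were called at 1 Gy d21, 3 Gy d28 and 6 Gy d28, with 0.458 at 3 Gy d28. Leaving out each mouse in turn gave 0 to 1 higher after sublethal doses, 0 to 1 higher and 0 to 22 lower at 20 Gy h2 (0 without M002 or any 20 Gy mouse, 22 without M005), 0 to 1 at d4 and d7 and 0 to 2 against 6 Gy. Medians ranged from -1.744 to -0.191 (1 Gy h2), -1.745 to -0.141 (3 Gy h2), -1.724 to -0.115 (6 Gy h2), -1.664 to -0.057 (20 Gy h2) and 0.153 to 2.352 (3 Gy d28). Within mice, 0 to 9 were called at 1 Gy d21, 0 to 24 at 3 Gy d28, 0 to 6 at 6 Gy d28 and 0 to 1 elsewhere, with medians of 0.408 to 2.621 (3 Gy d28), -1.618 to 0.046 (sham d4), -2.233 to -0.073 (sham d7), -2.759 to -0.356 (sham d21) and -2.506 to 0.273 (sham d28). Besides the left-out mice, 337 counts and medians were within these limits and 109 were not, and for single genes 141 calls held, 92 were lost and 1 reversed. Dim signal limits most genes, since 25 of 41 were above background on under 50% of arrays.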

Other observations

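On the 3 Gy d4 array of M011, 38 of 41 Krtap genes were well above background while the loess median was 0.161. The scanner software's ratio gave a median of 4.101 on this array, the ratio without background subtraction gave 2.002, and the deposited values gave 1.317, so the level of this array depends on the processing. On 10 arrays the software median was higher than the loess median by over 2, among them the 6 Gy h2 array of M020 (31 genes above background, 0.021 by loess and 2.15 by the software), the 1 Gy d4 array of M009 (0.013 and 2.593), the sham d7 array of M003 (0.148 and 2.192) and the 1 Gy d21 array of M007 (2.25 and 6.246, and 5.682 without background subtraction). The order of M007 and M006 at d21 turned with the processing, with M006 at 2.596 by loess, 4.646 by the software and 2.03 in the deposited values, where M007 was at 2.699. On the array of M002 at h2 the corresponding medians were 5.336 by loess, 7.013 by the software and 3.618 in the deposited values, and for M014 at d28 they were 4.95, 7.646 and 3.428.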
